A study of Homo sapiens with 96 samples.

Results

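A-to-I RNA editing was described in 8 of the 96 samples of the series, all of K562, a human line established from a chronic myeloid leukemia. In 4 samples the cells received AZ-20, KU-60019 and NU7441 together for 3 h, which inhibit the kinases ATR, ATM and DNA-PK, and then talazoparib for 3 h or SN-38, etoposide or Mirin for 6 h. In the other 4 samples DMSO, the solvent, stood in place of the inhibitors for 3 h, before the same second drug for the same time. The samples therefore form 4 pairs by second drug, matched by their treatment labels. A further 2 samples with DMSO for 3 h and then DMSO for 3 h or 6 h are given beside them as vehicle controls. Each condition has 1 sample, so the second drugs are the only replication of the pretreatment, and no sample with the inhibitors followed by DMSO was analysed here. Every value comes from a list of 4149 editing sites, 4092 of which have levels. The authors had removed sites in annotated repeats from it. A site counts as found in a sample where the list gives a level above 0, and a level is the fraction of reads with G at the site. The list holds neither gene expression nor the depth at a site, so fewer transcripts and less editing of each transcript cannot be told apart, and the K562 identity of the cells could not be checked against marker genes.

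ADAR enzymes deaminate adenosine to inosine in double-stranded RNA, and inosine is read as guanosine. Such RNA often forms where inverted repeats pair within introns and 3′ UTRs, and ADARs disfavor a guanosine just upstream of the edited base. ATR, ATM and DNA-PK are related kinases that signal DNA damage, ATR mainly at stalled replication forks and ATM and DNA-PK at double-strand breaks. Talazoparib blocks and traps PARP enzymes, SN-38 and etoposide poison topoisomerase I and II, and Mirin inhibits the MRE11 nuclease that helps to activate ATM.

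The sites below are those found in all 4 samples after the inhibitors and in none of the 4 after DMSO, followed by both sites whose level was lower after the inhibitors in all 4 pairs and by a site of RSPH3, the gene with the largest gain of found sites. Each line gives the RNA strand of the GRCh38 reference around the site, 5′ to 3′, with the listed adenosine in the middle and in capitals.
CFAP70, intron, chr10:73299587-73299615, minus strand: gagcucagaaggcaAgugccaaagccaag
AKAP11, coding sequence, chr13:42313034-42313062, plus strand: cuuccucuggcaguAaugguaacagcagu
ENSG00000228509, lncRNA exon, chr2:190754644-190754672, minus strand: uuauuugugucagaAuuauuuuuuguaua
ALDOA, 5′ UTR, chr16:30068468-30068496, plus strand: gaggaaagaggggcAcgcccagcuaccua
X chromosome, no gene on this strand, chrX:149763666-149763694, plus strand: ugagcuugacacuuAgggccacccgugau
NUP58, intron, chr13:25317484-25317512, plus strand: uggggguccaugguAaucagggauccaug
CD2AP, 3′ UTR, chr6:47624709-47624737, plus strand: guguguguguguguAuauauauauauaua
RSPH3, 3′ UTR, chr6:158974376-158974404, minus strand: ccagcauagaagaaAauggguacuauuaa
None of these adenosines follows a guanosine, and few listed sites do, 3.76% of all those with levels. In CD2AP the adenosine lies where a run of gu meets a run of au, and whether this affects the level read there was not tested.

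The number of sites found did not move one way with the inhibitors. Before talazoparib 294 sites were found after the inhibitors and 255 after DMSO, and before SN-38 448 and 328. Before etoposide 388 and 389 sites were found, and before Mirin 324 and 378. The pretreated samples thus held more sites with talazoparib and SN-38, 1 fewer with etoposide and fewer with Mirin, and both arms overlapped. The mean was 363.5 ± 68.6 (SD, n = 4) after the inhibitors and 337.5 ± 61.1 (SD, n = 4) after DMSO. The difference of 26 ± 73.3 sites (SD of 4 pairs) did not pass the exact two-sided paired permutation test, with p = 0.75. With 4 pairs this test cannot give a p below 0.125, so no result of this test could pass 0.05. The vehicle controls held 244 sites with DMSO for 3 h and 250 with DMSO for 6 h, below each of the 8 samples. Over all 96 samples the number ran from 30 to 633 with a median of 235.5. Read depth moved with the count, since the library after the inhibitors had more reads in the talazoparib and SN-38 pairs and fewer in the etoposide and Mirin pairs. Per 1000000 reads, 9.81 sites were found after the inhibitors and 9.18 after DMSO in the etoposide pair, which turned its direction. The other pairs kept theirs, at 7.36 against 6.69 with talazoparib, 10.5 against 8.96 with SN-38 and 8.97 against 9.83 with Mirin.

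**Figure D1:**
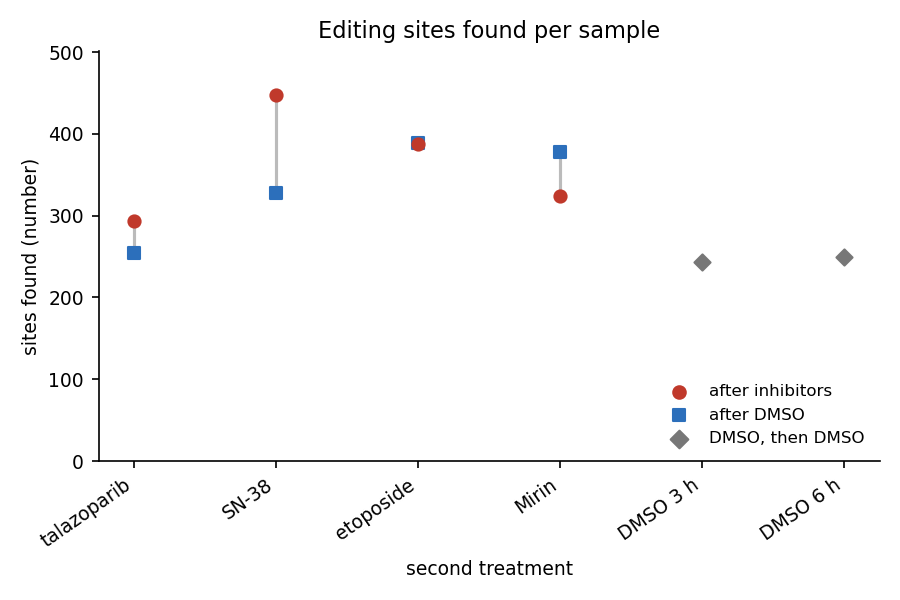
Number of editing sites found in each sample (vertical axis) by second treatment, with circles for samples after the inhibitors, squares for samples after DMSO and diamonds for both vehicle controls; each point is 1 sample and a line joins a pair. The circle lies above the square with talazoparib and SN-38, meets it with etoposide and lies below it with Mirin.

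The sites found in a pair were largely different sites. Both samples of a pair shared 73 sites with talazoparib, 126 with SN-38, 119 with etoposide and 119 with Mirin. The shared sites made up 24.8% to 36.7% of the list after the inhibitors and 28.6% to 38.4% of the list after DMSO. With SN-38, 322 sites were found only after the inhibitors and 202 only after DMSO, so 61.5% of the sites that differed (exact Clopper-Pearson 95% interval 57.1% to 65.6%) were on the side of the inhibitors. With Mirin it was 205 against 259 sites, or 44.2% (39.6% to 48.8%). The shares with talazoparib, 54.8% (49.8% to 59.8%), and etoposide, 49.9% (45.6% to 54.2%), had intervals that held 50%. These intervals cover counting error only, and neighbouring sites are not independent. Sites shared by a pair were found in a median of 20.5 to 27 of the 96 samples, and unshared sites in 5 to 6. Over the 8 samples 1525 sites were found, 986 of them after the inhibitors and 980 after DMSO, and 441 in both arms. No more than 15 sites were found in all 8 samples, and 935 were found in a single one. As a share of the sites found in either of 2 samples, the overlap had a median of 18.7% for the 4 pairs with the same second drug (15.3% to 20.4%), 16.7% for 12 pairs with the same pretreatment (12.2% to 21.3%) and 14.7% for 12 pairs that shared neither (10.5% to 18.1%). The ranges of all 3 kinds overlapped.

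At sites found in both samples of a pair, the median difference in level was above 0 in 3 of 4 pairs and did not pass the test. The median of the differences over sites was 0.026 with talazoparib, 0.05 with SN-38, 0 with etoposide and 0.0404 with Mirin. More sites were higher than lower with talazoparib (43 against 28), SN-38 (77 against 45) and Mirin (73 against 42), and with etoposide 56 were higher and 56 lower. The mean over the pairs was 0.0291 ± 0.0218 (SD, n = 4), which the exact paired permutation test did not separate from 0, with p = 0.25. The median level at these sites was 0.429, 0.36, 0.31 and 0.375 after the inhibitors and 0.301, 0.261, 0.26 and 0.285 after DMSO, in the order talazoparib, SN-38, etoposide and Mirin. The values of both arms did not overlap, and their difference of 0.0915 had p = 0.0286 in the exact unpaired permutation test, the smallest it can give, and p = 0.125 in the paired one. This measure was read in place of the median difference only as an alternative, and over the 15 sites found in all 8 samples the mean of the median differences was -1.3e-05.

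**Figure D2:**
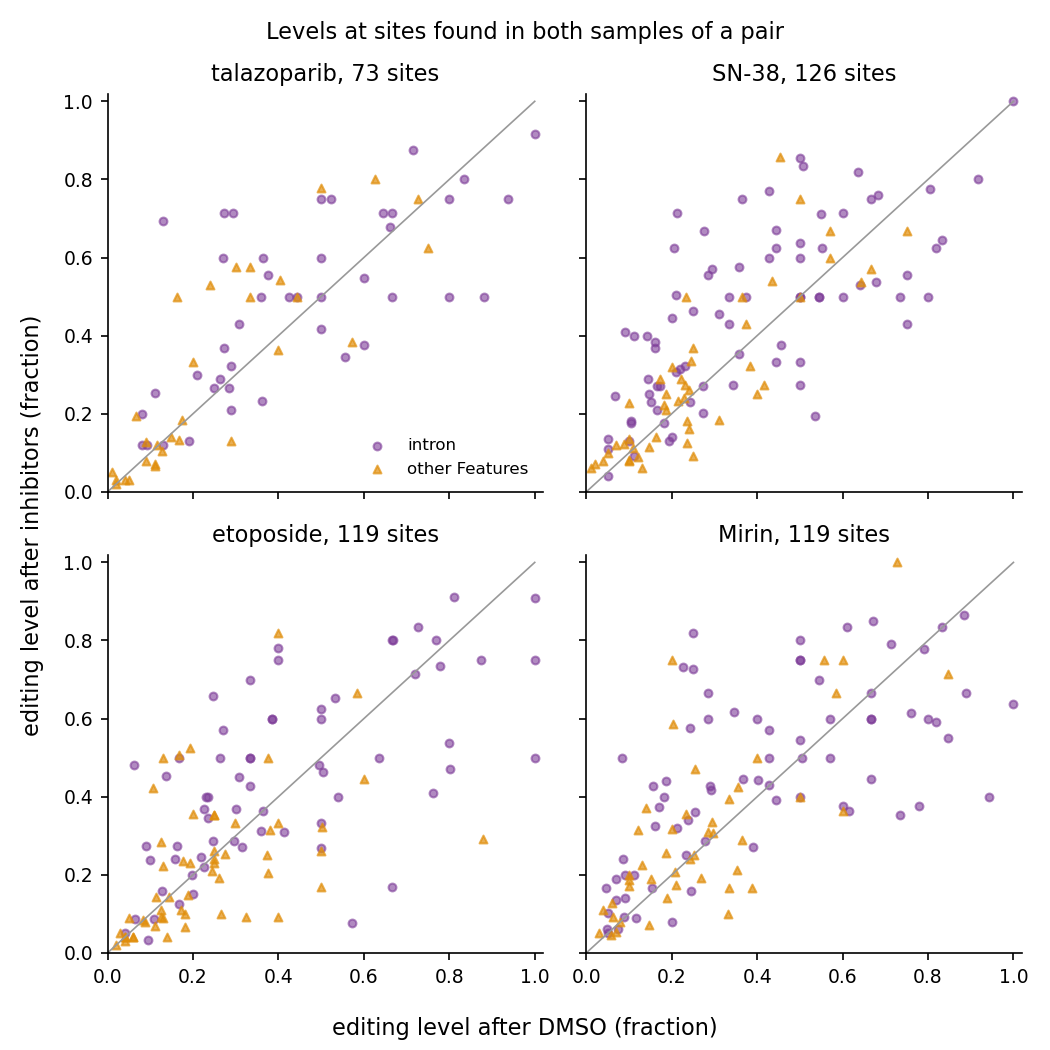
Editing level after the inhibitors (vertical axis, fraction) against that after DMSO (horizontal axis, fraction) at sites found in both samples of a pair, in 1 panel per second drug, with circles for introns, triangles for other genomic elements and a line of equal level. With SN-38, 77 of 126 sites lie above the line and 45 below, whereas with etoposide 56 lie on either side.

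Introns and 3′ UTRs were then read separately, a split chosen after the values were seen. Shared intronic sites had a median difference of 0.035 with talazoparib (43 sites), 0.083 with SN-38 (79), 0.031 with etoposide (65) and 0.047 with Mirin (74), higher after the inhibitors in all 4 pairs. Shared sites in 3′ UTRs had median differences of -0.01 (11 sites), 0.037 (18), -0.017 (34) and 0.02 (19), which go both ways. The mean over pairs was 0.0491 in introns, p = 0.125, and 0.0075 in 3′ UTRs, p = 0.625, in the exact paired permutation test, and the difference between both elements was not tested. Across shared sites the levels of a pair correlated with Pearson's r of 0.779 with talazoparib, 0.754 with SN-38, 0.667 with etoposide and 0.696 with Mirin (73 to 126 sites, which are not independent and share their libraries). Over all found sites, shared or not, the median level was 0.333 to 0.4 after the inhibitors and 0.333 to 0.359 after DMSO.

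Introns held a smaller share of the sites found after the inhibitors in all 4 pairs, a difference that did not pass the test. Introns held 61.6%, 66.3%, 55.9% and 56.5% of the sites found after the inhibitors with talazoparib, SN-38, etoposide and Mirin, and 62.7%, 69.5%, 66.8% and 70.1% after DMSO. The difference was small with talazoparib and largest with Mirin, and the vehicle controls, at 63.1% and 62.4%, lay between the means of 60.1% and 67.3%. Over the 4 pairs the share was lower by 7.23 percentage points on average (difference -7.23 ± 5.98, SD), with p = 0.125 in the exact paired permutation test and an adjusted p of 0.25 over the 6 shares tested. With 1 site counted per cluster of sites within 100 bases the difference was -3.97, p = 0.375, in the same exact test.

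3′ UTRs held 9.86%, 11.6%, 19.1% and 14.8% of the sites after the inhibitors and 12.2%, 10.4%, 13.9% and 10.1% after DMSO, higher in 3 pairs and lower with talazoparib. The difference of 2.23 ± 3.49 percentage points had p = 0.375 in the exact paired permutation test (adjusted p = 0.562), and it fell to 0.34 when the sites of RSPH3 were left out. The share of vlincRNAs, very long intergenic non-coding transcripts, was 7.98% and 8.21% (adjusted p = 1), and that of unannotated sites, absent from editing databases, 15.7% and 15.1% (adjusted p = 0.75), both by the exact paired test.

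Other shares moved one way in all 4 pairs without passing the paired test, whose smallest possible p with 4 pairs is 0.125. Sites that follow a guanosine made up 2.04%, 2.9%, 2.84% and 2.47% of those found after the inhibitors and 3.92%, 3.66%, 3.6% and 3.7% after DMSO. The arms did not overlap in this share, and the vehicle controls lay at 2.05% and 4%, as far apart as both arms. Over all listed sites with levels the share was 3.76%, and in each sample it rests on few sites. The exact paired permutation test gave p = 0.125 (adjusted p = 0.25) and the unpaired one 0.0286. Sites detected by all 3 prediction methods made up 42.3% ± 1.31 (SD, n = 4) and 44.5% ± 1.38 (SD, n = 4), also lower in all 4 pairs (exact paired p = 0.125, adjusted p = 0.25). Chosen after their values were seen, sites in 5′ UTRs made up 5.06% after the inhibitors and 3.53% after DMSO, and sites in exons of lncRNAs 1.38% and 0.513%, each higher in all 4 pairs. So were sites that the list classes as Others, at 3.93% and 2.8%, and all exonic sites of both UTRs, coding sequences and lncRNA exons together, at 21.9% and 16.9% with 19.3% and 22% in the vehicle controls. Each of these 4 shares had p = 0.125 in the exact paired permutation test. The lncRNA exons rest on 6, 4, 4 and 5 sites against 1, 2, 1 and 3, and the vehicle controls had 0 and 7.

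**Figure D3:**
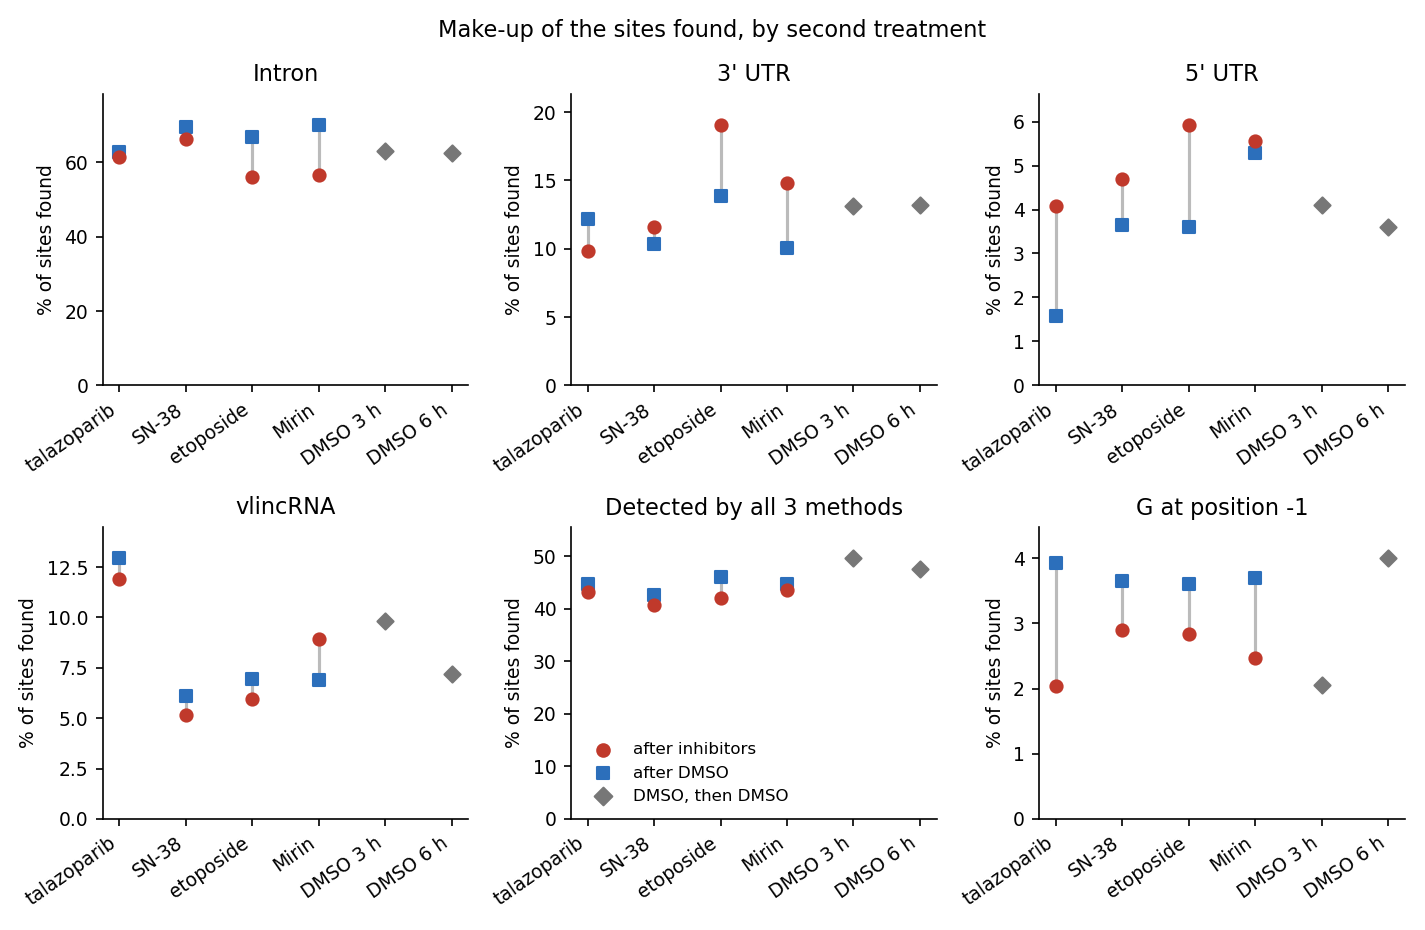
Share of the sites found in each sample (vertical axes, percent) that lie in introns, 3′ UTRs, 5′ UTRs or vlincRNAs, that all 3 methods detected, or that follow a guanosine, by second treatment; circles are samples after the inhibitors, squares after DMSO and diamonds the vehicle controls. The circle lies below the square in every pair for introns, all 3 methods and guanosine, and above it in every pair for 5′ UTRs.

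Fisher's exact test of found or not, run over the 1525 sites, called 0 after Benjamini-Hochberg adjustment (0% called, smallest adjusted p = 1). With 4 samples against 4 its smallest p is too large for a few sites among so many to pass the adjustment, so this 0 says nothing about any site. At an unadjusted threshold of 0.05 it gave 5 sites, each found in 4 of 4 samples after the inhibitors and 0 of 4 after DMSO with the smallest p this design allows, 0.0286 (0.328% of the sites tested). The opposite pattern, 0 of 4 against 4 of 4, was seen at 0 sites (0% of the sites tested). Sites found in at least 3 more samples of one arm numbered 26 toward the inhibitors and 13 toward DMSO, and sites found in all 4 samples of an arm numbered 47 after the inhibitors and 25 after DMSO. Of all 1525 sites, 676 were found in more samples after the inhibitors, 629 in fewer and 220 in as many.

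The 5 sites found in all 4 samples after the inhibitors and in none of the 4 after DMSO lay in 5 different elements. The coding site of AKAP11, which anchors protein kinase A, had levels of 0.17, 0.18, 0.18 and 0.25 with talazoparib, SN-38, etoposide and Mirin, and no level in the 4 DMSO samples and both vehicle controls. It is not particular to the inhibitors, since 32 of the other 88 samples had a level there, with a median of 0.295. In the paper, Sanger sequencing found no editing at part of the listed sites that were tested. Among annotated sites such failures were more frequent in coding sequences than elsewhere. A level at a single site named here is thus a prediction from reads. The site in ALDOA, a glycolytic aldolase, had 0.093, 0.176, 0.129 and 0.232 after the inhibitors and a level in 14 of the other 88 samples. The authors placed it in a 5′ UTR, and GENCODE has a non-coding exon there. The site in the unnamed lncRNA gene ENSG00000228509 had 0.12, 0.302, 0.139 and 0.207 and a level in 1 of the other 88 samples. This gene has 2 more listed sites, at 0.11 and 0.176 in the talazoparib and Mirin samples and at 0.12 in the etoposide sample after the inhibitors, and neither had a level in any of the other 88.

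The intronic site of CFAP70, a protein of cilia, stood apart by its height, with 0.702, 1, 0.942 and 0.917 after the inhibitors. It is unannotated, the vehicle control with DMSO for 6 h had 0.5, and 19 of the other 88 samples had a median of 0.918 there. The site on the X chromosome, also unannotated and with no gene on its strand, had 0.089, 0.08, 0.06 and 0.14 after the inhibitors and a level in 5 of the other 88 samples, from 0.321 to 1. A pair of neighbours at positions 149763548 and 149763664 were each found after the inhibitors with talazoparib, etoposide and Mirin, at 0.04 to 0.122, and in none of the 4 DMSO samples.

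Levels could be compared over all 8 samples at 15 sites, and limma with the second drug as a block called none of them after Benjamini-Hochberg adjustment (0% called). It gave 3 sites an unadjusted p under 0.05, each lower after the inhibitors with an adjusted p of 0.231. In an intron of NUP58, a nuclear pore protein, the level was 0.234, 0.333, 0.464 and 0.616 after the inhibitors and 0.362, 0.5, 0.504 and 0.76 after DMSO. It was lower in all 4 pairs while both arms overlapped, with a mean difference of -0.12 and an unadjusted limma p of 0.046. In the 3′ UTR of CD2AP, an adaptor of the actin cytoskeleton, it was 0.07, 0.161, 0.17 and 0.141 against 0.11, 0.24, 0.5 and 0.19, lower in all 4 pairs, with an unadjusted limma p of 0.045. In an intron of LUC7L, a U1 snRNP-associated splicing factor, it was 0.678, 0.538, 0.471 and 0.55 against 0.661, 0.677, 0.801 and 0.846, lower in 3 pairs, with an unadjusted limma p of 0.016. No site was higher in all 4 pairs. The vehicle controls with DMSO for 3 h and 6 h had 0.299 and 0.81 at this NUP58 site. They had 0.09 and 0.12 at CD2AP, near the levels after the inhibitors, and 0.568 and 0.755 at LUC7L. Among the other 88 samples with a level there, the medians were 0.556, 0.12 and 0.607 in the same order.

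The other 12 sites in all 8 samples had adjusted limma p-values from 0.46 to 0.837. A 3′ UTR site of GNL3L, a nucleolar GTPase, had no lower value after the inhibitors in any pair, at 0.05, 0.06, 0.04 and 0.05 after the inhibitors and 0.01, 0.01, 0.04 and 0.03 after DMSO. These values lie near the lowest level recorded in each of the 8 samples, 0.01 to 0.023. The other GNL3L site in all 8 samples had 0.141, 0.221, 0.148 and 0.226 against 0.148, 0.183, 0.188 and 0.13, higher in 2 pairs and lower in 2. A site of SSR4, a subunit of the translocon-associated complex, had 0.529, 0.368, 0.525 and 0.165 against 0.24, 0.25, 0.194 and 0.388, higher in all pairs but that with Mirin. The known recoding site of BLCAP had means of 0.242 ± 0.096 and 0.249 ± 0.027 (SD, n = 4 each), and a coding site of SON, an RNA-binding protein of nuclear speckles, had 0.052 ± 0.032 and 0.045 ± 0.025 (SD, n = 4 each).

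**Figure D4:**
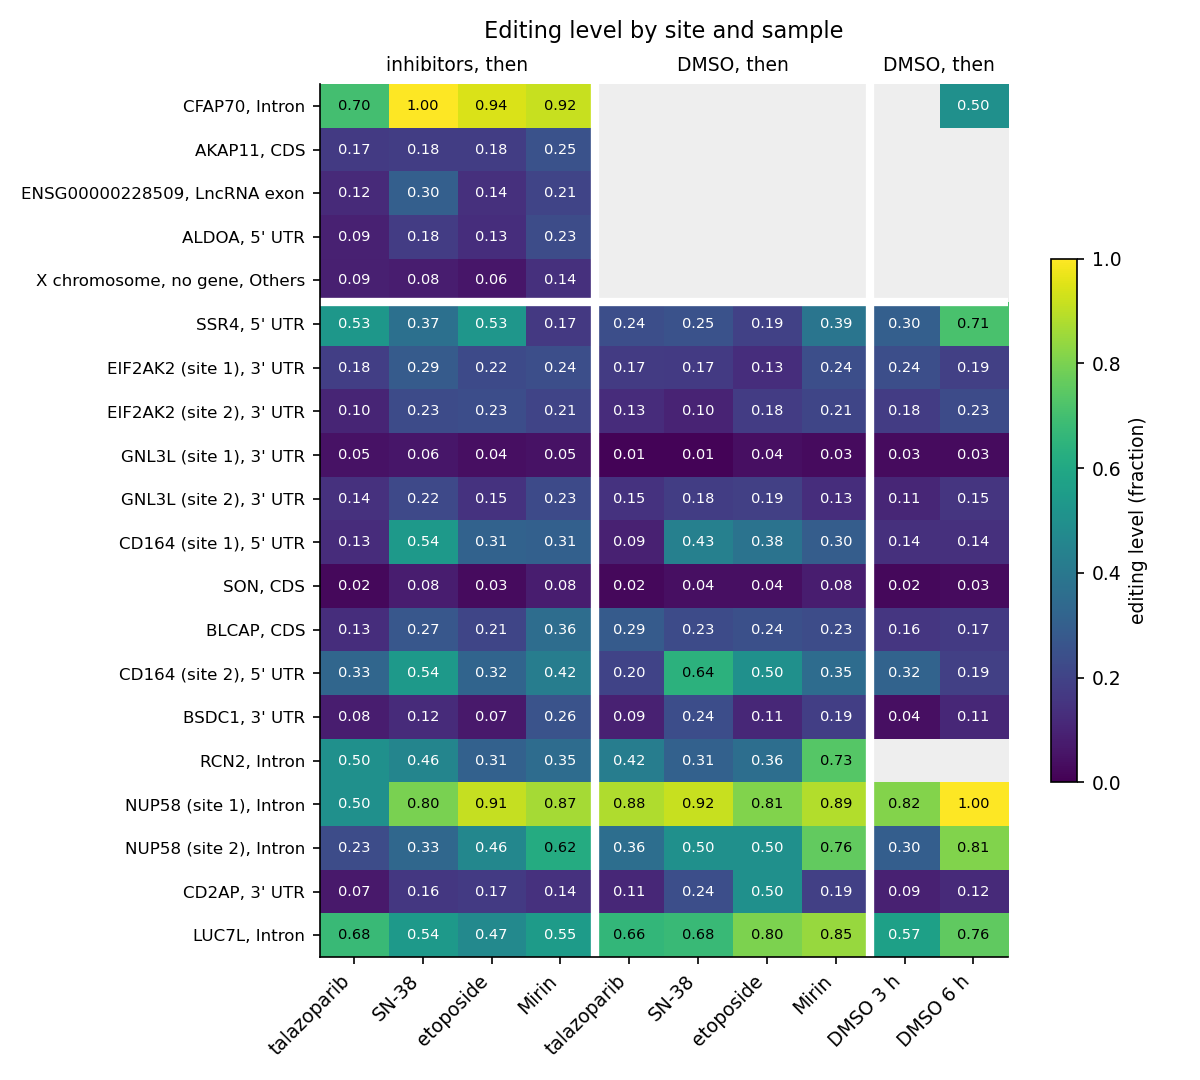
Editing level (color and printed value, fraction) by site and sample. The upper block holds the 5 sites found in all 4 samples after the inhibitors and in none of the 4 after DMSO. The lower block holds the 15 sites found in all 8. Columns are the 4 samples after the inhibitors, the 4 after DMSO and both vehicle controls, and grey marks no level recorded. The upper block is grey in all 4 DMSO columns, and in the lower block the second NUP58 site and CD2AP are lower after the inhibitors with every second drug.

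Found sites lay in 636 host genes, of which 298 had more found sites after the inhibitors, 260 had fewer and 78 as many, summed over the pairs. The number was higher in all 4 pairs in 10 genes and lower in all 4 in 2, and no test was run per gene. AKAP11, ALDOA, CFAP70 and ENSG00000228509 are among the 10 through the sites described above, so they repeat that result. The largest gain was in the 3′ UTR of RSPH3, a radial spoke protein of cilia, with 8, 12, 16 and 14 sites after the inhibitors and 3, 0, 14 and 2 after DMSO. The vehicle controls had 2 and 0, and the DMSO sample with etoposide was the only one of its arm above 3. These lie among 29 listed sites at positions 158973371 to 158974397 of chromosome 6, and 40 of the other 88 samples had at least 1, up to 14. The levels themselves did not go one way. Where both samples of a pair had a level, it was higher after the inhibitors in 6 cases and lower in 6. The site printed above had 0.182, 0.222, 0.204 and 0.5 after the inhibitors and, after DMSO, a level of 0.375 with etoposide alone.

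SLF1, which brings the SMC5/6 complex to damaged DNA, had more sites in an intron, with 2, 5, 7 and 10 after the inhibitors against 0, 1, 5 and 6 after DMSO. Both arms overlapped, and the vehicle controls had 1 and 4. Where both samples of a pair had a level in SLF1, it was higher after the inhibitors in 9 of 10 cases, many of them at neighbouring sites, which are not independent. GDPD1, a glycerophosphodiesterase, had 3, 2, 2 and 1 sites in its 3′ UTR after the inhibitors and 0 in every DMSO sample and both vehicle controls, while 36 of the other 88 samples had at least 1.

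The largest losses were in introns. STARD4, a sterol carrier, had 0, 6, 2 and 2 sites after the inhibitors and 5, 0, 7 and 9 after DMSO, lower in 3 pairs and higher with SN-38. CMSS1, a ribosome assembly factor, had 0 in every sample after the inhibitors and 1, 7, 2 and 0 after DMSO, 7 of its 10 with SN-38. ANKMY2 had 2, 1, 1 and 0 against 5, 2, 1 and 5. MRPL3, a mitochondrial ribosomal protein that tied with it, had 0, 2, 1 and 1 against 1, 6, 3 and 3, lower in all 4 pairs. The other gene lower in all 4 was PHF3, which binds the RNA polymerase II tail, with 0 sites after the inhibitors and 1, 1, 2 and 1 after DMSO.

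Genes with many sites and no common direction were RAB3GAP2, a regulator of RAB GTPases, with 1, 9, 4 and 6 against 1, 4, 7 and 10, and the splicing factor SMU1, with 0, 1, 13 and 3 against 1, 8, 7 and 9. KCTD13, an adaptor of cullin ubiquitin ligases, had 6, 1, 2 and 9 against 2, 8, 1 and 7. Summed over the pairs they had 20 against 22, 17 against 25 and 18 against 18 sites.

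**Figure D5:**
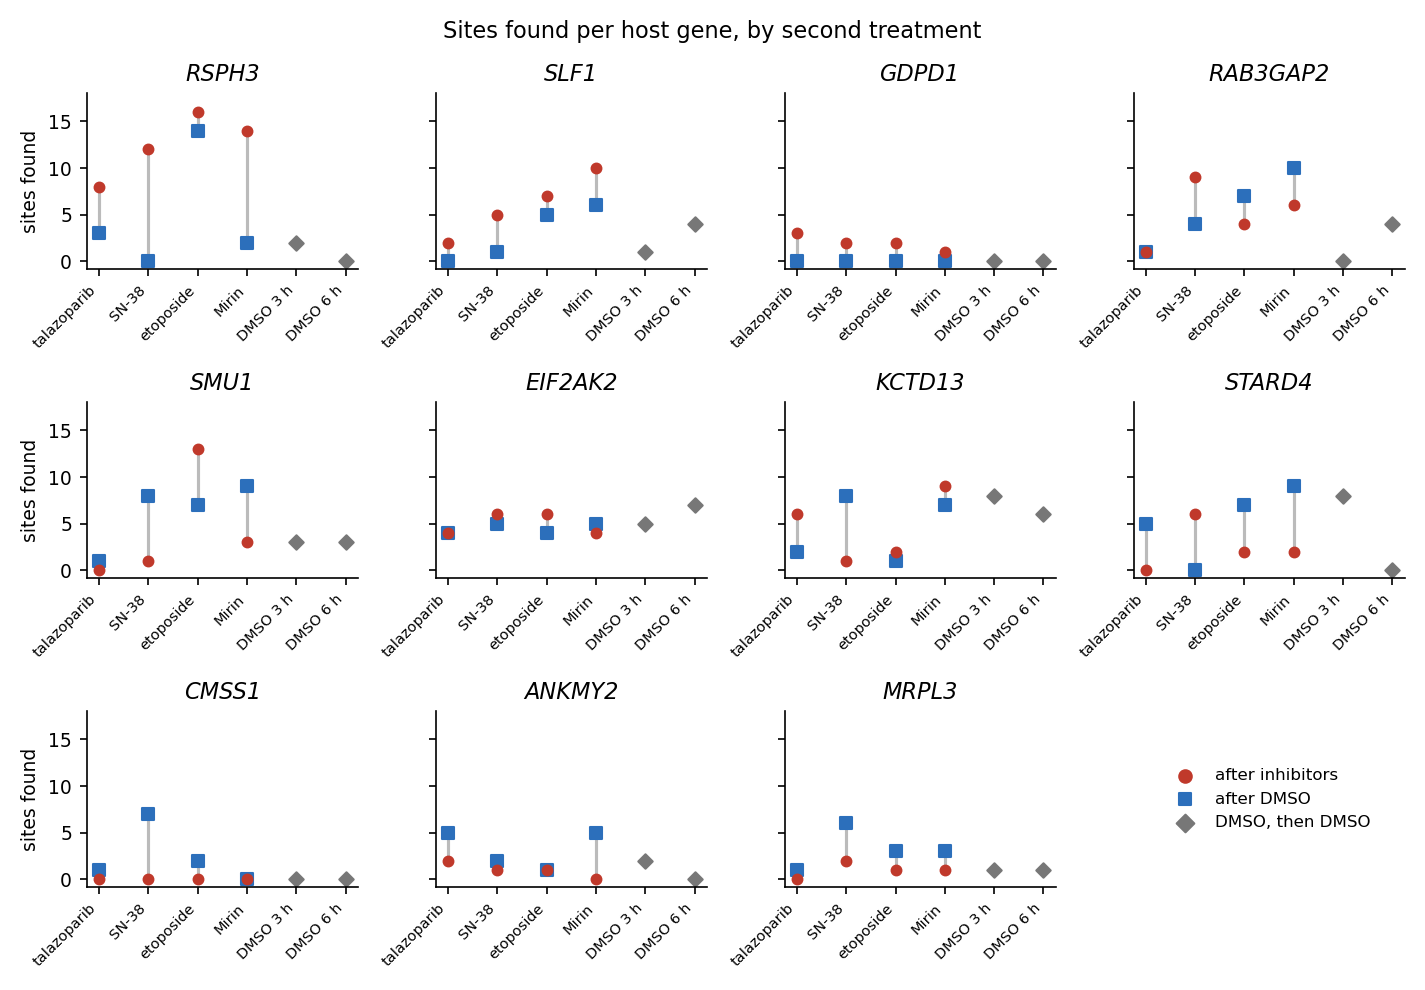
Number of sites found (vertical axes) in the host genes with the most found sites, the largest gains (RSPH3, SLF1, GDPD1) and the largest losses (STARD4, CMSS1, ANKMY2, MRPL3), by second treatment; circles are samples after the inhibitors, squares after DMSO and diamonds the vehicle controls. RSPH3 reaches 16 sites after the inhibitors, and its squares lie at 0 to 3 except for 14 with etoposide.

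The genes of DNA damage response and repair were read from a list of 138 genes, which does not hold SLF1. Of these, 20 had listed sites and 8 had a site found in the 8 samples, with 1, 7, 3 and 2 sites after the inhibitors and 4, 2, 5 and 2 after DMSO. These were 21 different sites. After the inhibitors 5 of the 8 genes had more found sites and 3 fewer, and the median gene difference was 1 against 0 over all host genes. MRE11, the target of Mirin, had no site found in either Mirin sample. It had intronic sites at 0.571 and 0.291 with SN-38 after the inhibitors, a 3′ UTR site at 0.12 with SN-38 after DMSO, an intronic site at 0.27 with talazoparib after DMSO, and a pair at 0.16 and 0.17 with etoposide after DMSO. BLM, a helicase that resolves recombination intermediates, had 4 intronic sites, one of them at 0.571 with etoposide and 0.444 with Mirin after the inhibitors and at 0.366 with Mirin after DMSO. ERCC6, of transcription-coupled repair, had 4 intronic sites, of which 3 were found after the inhibitors and 2 after DMSO. The ubiquitin ligase RAD18 had 3, each in 1 or 2 samples at 0.222 to 0.75. BRCA1, FANCA and RAD23B had 1 each, found in a single sample. None of the 20 p53 target genes in the list made for this had a listed site, and of the genes of splicing and RNA decay none had one found.

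Of the proteins that edit or bind double-stranded RNA, EIF2AK2 and ZFR had found sites. EIF2AK2, the interferon-induced kinase PKR, had 4, 6, 6 and 4 sites in its 3′ UTR after the inhibitors and 4, 5, 4 and 5 after DMSO. Its most frequently found site had 0.104, 0.228, 0.234 and 0.206 against 0.127, 0.099, 0.177 and 0.208, higher in 2 pairs and lower in 2, with an adjusted limma p of 0.743. Its other site with a level in all 8 samples had 0.185, 0.288, 0.223 and 0.241 against 0.174, 0.172, 0.131 and 0.242, higher in 3 pairs, with an adjusted limma p of 0.551. ZFR, a zinc finger protein that binds double-stranded RNA, had 8 intronic sites within 100 bases, 7 of them found with SN-38 after DMSO at 0.029 to 0.146. Genes known as recoding targets of ADARs had 5, 7, 7 and 5 found sites against 9, 2, 4 and 5. These take in sites outside coding sequences, such as intronic sites of COPA and a 3′ UTR site of AJUBA. Zinc finger genes of the ZNF series had 4, 12, 11 and 11 against 2, 5, 16 and 4. The numbers of both lists overlapped between arms. Among cell cycle and replication genes CDC45, CDC6 and ORC3 had found sites, 0 to 1 in every sample.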

How the data were processed

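The deposited list gives, for each site and sample, the editing level as a fraction, which the authors averaged over the methods (REDItools, RED-ML, SPRINT) that detected the site in that sample. Per the submitters' processing notes, TopHat2 2.1.1, Picard 2.0.1 and SAMtools 1.9 were used, on GRCh38. The authors removed known variants, sites in annotated repeats and sites in regions of low sequence uniqueness. They kept sites found in more than a single sample and edited above a minimum somewhere in the series. Sites predicted by REDItools alone were dropped. For unannotated sites outside introns and vlincRNAs, the paper's pipeline required SPRINT as well as RED-ML. The list cannot show what these filters removed, and shares by element, annotation or method describe this filtered list only. Columns of 34 samples outside this set were not used here, and 0 was read as no level recorded. Depth at a site is unknown, and reads per library were used only to scale the number of sites.

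Genes on the strand of a site came from GENCODE release 44, and 3793 of 4149 sites had one; gene names are thus not the authors'. The base is A in the GRCh38 reference at 4145 sites. Spelling variants of the genomic elements were merged. Samples were paired by second drug. Numbers, shares and median differences were tested by exact two-sided paired permutation (sign flips), levels per site by limma 3.58.1 (R 4.3.3) on the arcsine of the square root with the second drug as block, and detection per site by Fisher's exact test, with Benjamini-Hochberg adjustment and a threshold of 0.05. The limma fit was tested on simulated levels, and the permutation code was checked against scipy. The simulation had more sites and larger shifts than the real fit, so it does not show the power reached here. Nothing in the labels says that the samples came from separate cultures, so p-values measure only the spread between these samples.

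This set of samples, the gene lists and the alternatives were chosen with earlier results of these data known. Named were, by rule, sites with a level in all 8 samples that moved one way in all 4 pairs (up to 4 in each direction), sites found in all 4 samples of an arm and none of the other, found sites in genes of 2 lists (DNA damage response and repair, and proteins that edit or bind double-stranded RNA), the 5 host genes with the most found sites, and the 3 with the largest rise and fall, with ties. PHF3, LUC7L, GNL3L, SSR4, BLCAP, SON and the X-chromosome neighbours were picked with their values in view, as was the exclusion of RSPH3. Alternatives left out each pair or RSPH3, dropped the pairing, kept 1 site per cluster, and changed level minimums, methods, classes and scales. Scripts ran in Python 3.11.15 (scipy 1.17.1, numpy 2.4.6, pandas 2.3.3, matplotlib 3.10.9).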

Additional observations from a re-analysis of the deposited data

Results flagged for a closer look

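A sample far from the 3 others of its arm was seen in 3 of 75 groups of 4 values examined, where chance gives about 1 in 20. The share of vlincRNA sites was 12.9% in the sample with DMSO and then talazoparib, against 6.1% to 6.94% in the other DMSO samples. Its partner after the inhibitors also had the highest share of its arm, 11.9%, and this pair alone had a second treatment of 3 h. The level of the AKAP11 coding site was 0.25 with Mirin after the inhibitors, against 0.17 to 0.18 with the other drugs, and that of the printed RSPH3 site was 0.5 with Mirin, against 0.182 to 0.222.

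Some differences between the inhibitors and DMSO had opposite directions with different second drugs. This was not tested, since each drug has 1 pair. The number of sites found was higher by 120 with SN-38 and lower with Mirin (difference -54). The 3′ UTR share was higher by 5.19 percentage points with etoposide and lower with talazoparib (-2.29). The vlincRNA share was higher by 2.07 with Mirin and lower with talazoparib (-1.04), and the unannotated share was higher by 4.16 with etoposide and lower with Mirin (-2.12). In sites found per gene, STARD4 gained 6 with SN-38 and lost with Mirin (-7), SMU1 gained 6 with etoposide and lost with SN-38 (-7), RAB3GAP2 gained 5 with SN-38 and lost with Mirin (-4), KCTD13 gained 4 with talazoparib and lost with SN-38 (-7), and EIF2AK2 gained 2 with etoposide and lost with Mirin (-1).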

How the results depend on the processing

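Without the pairing, the difference of 0.0915 between the medians of the samples at shared sites and the share following a guanosine (-1.16 percentage points) reached p = 0.0286 in the exact permutation test, while no other call changed without the replicate block. The median level difference became -1.3e-05 over the 15 sites found in all 8 samples. Leaving out single pairs moved the difference in sites found between -5.33 (without SN-38) and 52.7 (without Mirin), the level difference between 0.0221 and 0.0388, the intron share between -9.25 and -5.1, the 3′ UTR share between 1.24 (without etoposide) and 3.73 (without talazoparib), the vlincRNA share between -1.0 and 0.0319 and the unannotated share between -0.598 (without etoposide) and 1.49 percentage points. Level minimums, methods and classes kept the mean direction of the sites found and of the level at shared sites, as scaling to reads did for the sites found, and 1 site per cluster or leaving out RSPH3 kept it for those and for the 6 shares. limma called 0 sites in each setting it was run in, and Fisher's exact test had too few samples to call any. With a level of at least 0.1, 3 sites remained at 4 against 0, and leaving out single pairs gave 9 to 13 sites found in every remaining sample after the inhibitors and no DMSO sample, against 1 to 6 the other way. At named single sites, leaving out a pair turned the direction at SON (-0.0091 to 0.0285 on the arcsine scale) and at BLCAP (-0.0637 to 0.0475). On that scale CD2AP moved from -0.149 to -0.0784 without etoposide and SSR4 from 0.133 to 0.0589 without etoposide, 0.0761 without talazoparib and 0.262 without Mirin (an adjusted limma p of 0.0585). The most frequently found EIF2AK2 site moved from 0.0527 to 0.0111 without SN-38 and 0.0822 without talazoparib, and the other from 0.0688 to 0.0452 without SN-38. The cause was not tested. Without depth at each site, a site that was not found may be unedited or unread.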
